A study of Mus musculus with 10 samples.

Results

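The 9 genes described here encode subunits of nicotinic acetylcholine receptors, 5 genes of ganglia and neurons (Chrna3, Chrna4, Chrna7, Chrnb2 and Chrnb4) and 4 genes of muscle (Chrna1, Chrnb1, Chrnd and Chrng). They were chosen by symbol, as all probe sets that the platform annotation assigns to exactly 1 of these genes, which gave 19 of 45037 non-control probe sets, 13 ganglionic and 6 muscle. At the gene level they are 9 of 18193 named genes. These receptors are cation channels made of 5 subunits around a central pore, and different sets of subunit genes serve different synapses. In autonomic ganglia, receptors built mainly from the alpha3 and beta4 subunits carry fast transmission onto sympathetic and parasympathetic neurons, and the same receptors trigger catecholamine release from chromaffin cells of the adrenal medulla. Skeletal muscle uses another set, alpha1, beta1, delta and, before birth, gamma, which the epsilon subunit replaces in the mature endplate.

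The RNA came from urogenital systems of mouse embryos taken at embryonic day 15.5. Of the 10 arrays, 5 came from embryos labelled Wnt9bcneo/cneo, called homozygous here, and 5 from embryos labelled Wnt9bcneo/+, called control here, although their titles call them wild type. Wnt9b encodes a Wnt ligand of the ureteric bud and nephric duct, and the labels do not state what the cneo allele does to it. Each array holds 1 pool of 1 to 2 urogenital systems, so the p-values measure the spread between pools.

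Values are intensities on a linear scale, made by the authors, with the same trimmed mean of 500 on every array. For this work intensities under 16 were set to 16, called the floor, and the genotypes were compared on the log2 scale with limma, a gene being called changed at a Benjamini-Hochberg adjusted p under 0.05 over all 18193 genes. Each gene is represented by its brightest probe set. Marker genes were read to describe the pools, whose content the labels do not give. Of the 10 kidney marker genes listed, Pax2 was not named on the array, and the other 9 were above the floor on all 10 arrays. Markers of sympathetic neurons and chromaffin cells, of muscle and of the adrenal cortex varied widely between pools, as the sums given with the results show. RNA integrity, read from the actin 3'/middle signal ratio, which grows as RNA breaks down, also varied: homozygous pool 5 had 97.67, control pool 1 had 94.77, and the remaining 8 pools had 9.87 to 33.13. Xist, the RNA of the inactive X chromosome, had a log2 intensity of 13.75 to 14.27 in homozygous pools 3, 4 and 5 and of 6.07 or less in the other 7. High Xist was thus found in homozygous pools only and in no control pool. Probe sets at or under the floor made up 19.9% to 21.1% of a homozygous array and 22.2% to 23.0% of a control array. Wnt9b itself differed by -0.23 ± 0.36 on the log2 scale (SE; limma adjusted p = 0.803). An intensity cannot tell fewer cells of a type from less RNA per cell, and levels of different probe sets cannot be set against each other.

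Of the 9 subunit genes, 1 was called, Chrna7, which was higher in homozygous pools, and 8 did not pass. Over all genes 0.967% were called in either direction, and 0.539% were called higher. The 5 ganglionic genes had a median log2 change of 0.54, with 3 positive and 2 negative, and the 4 muscle genes had a median of 0.72, with all 4 positive, beside a median of 0.00 over all genes. An unadjusted p under 0.05 was reached by 3 of the 5 ganglionic genes (Chrna3, Chrna7 and Chrnb4) and by 0 of the 4 muscle genes, against 15.7% of all genes. The 9 genes were chosen with earlier results of these data known, so their shares are not those of a blind choice. The groups did not overlap for 1 of the 9, again Chrna7, while 4.71% of all genes separated in either direction and 2.61% with the homozygous pools higher.

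**Figure D1:**
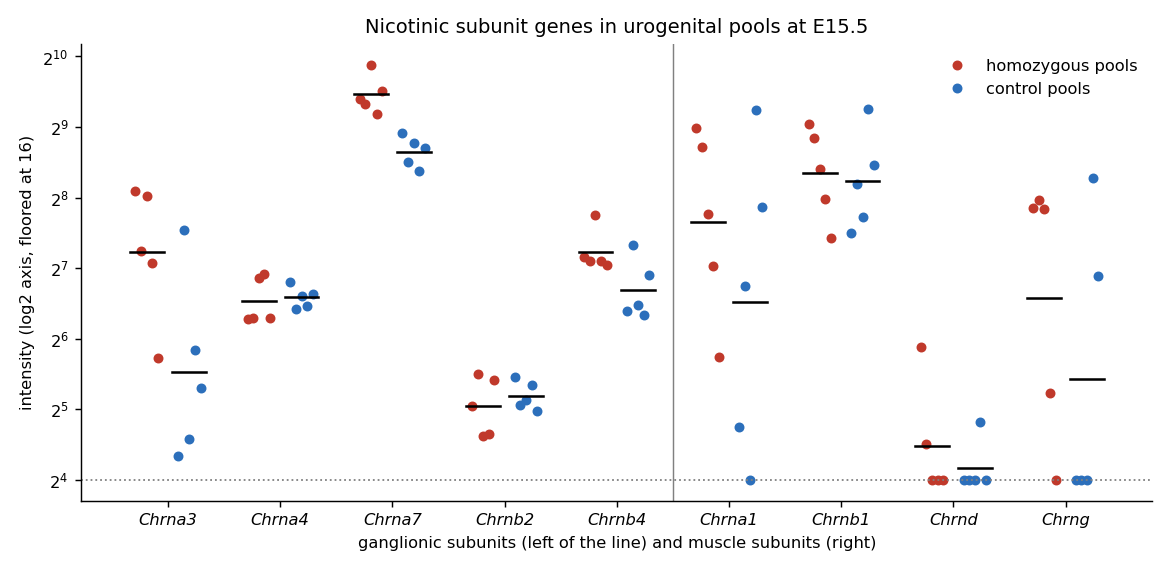
Intensity of the brightest probe set of each subunit gene in 5 homozygous and 5 control pools, on a log2 axis with values under 16 drawn at 16 (dotted line); points are pools and bars are means of log2 values. The Chrna7 values of the homozygous pools, 584 to 944, all lie above those of the control pools, 333 to 481, while the other 8 genes overlap.

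Chrna7 encodes the alpha7 subunit, which forms receptors of a single subunit type with high calcium permeability in neurons and is also made by some non-neuronal cells, macrophages among them. The gene lies at chr7:63098692-63212526 (GRCm38.p6). Its brighter probe set, 1440681_at, read 674, 640, 944, 584 and 732 in homozygous pools 1 to 5, against 481, 364, 436, 333 and 415 in control pools 1 to 5. Every homozygous pool was above every control pool. The mean log2 intensity was 9.46 ± 0.26 in homozygous pools and 8.65 ± 0.21 in control pools (SD, n = 5 each), a difference of 0.81 ± 0.15 (SE), or 1.75-fold, with a limma adjusted p of 0.0473. The call was narrow: leaving out any 1 of the 10 pools ended it, with changes of 0.70 to 0.88 and limma adjusted p of 0.0523 to 0.134. It was kept with the actin ratio as a covariate (0.77, limma adjusted p = 0.0389) and lost without the 2 arrays of high actin ratio (0.86, limma adjusted p = 0.0917). Without the 3 pools of high Xist, homozygous pools 1 and 2 were set against the 5 control pools, and the call was lost too (0.71, limma adjusted p = 0.299).

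The second Chrna7 probe set, 1450299_at, is the one that the platform annotation ties to a RefSeq transcript. It read 60.3, 45.9, 48.2, 66.2 and 47.3 in homozygous pools against 61.9, 26.5, 24.1, 27.9 and 51.2 in control pools, so that control pools 1 and 5 lay within the homozygous range. Its difference was 0.58 ± 0.29 (SE; limma adjusted p = 0.475 over all probe sets). In that fit over all 45037 probe sets, where 0.231% were called, the brighter probe set had an adjusted p of 0.0707, and 0 of the 19 probe sets passed in limma.

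The 250 bases before the annotated Chrna7 start, chr7:63212527-63212776 on the minus strand (RefSeq, GRCm38.p6), are shown because Chrna7 was the gene called. The capitals mark the 1 match to GGGCGG on either strand, the GC box bound by Sp1, which 32.7% of 32851 annotated promoter windows of this length also hold.
Chrna7: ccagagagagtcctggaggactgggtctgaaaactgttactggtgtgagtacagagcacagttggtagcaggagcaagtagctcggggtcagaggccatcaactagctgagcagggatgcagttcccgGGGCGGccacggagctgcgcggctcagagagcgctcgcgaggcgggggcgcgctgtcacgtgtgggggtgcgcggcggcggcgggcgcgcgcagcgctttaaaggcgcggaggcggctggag

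Chrna3 encodes the alpha3 subunit, the main ligand-binding subunit of ganglionic receptors. Its brightest probe set, 1455931_at, read 273, 151, 260, 135 and 53.1 in homozygous pools 1 to 5 and 20.3, 187, 23.9, 57.5 and 39.5 in control pools 1 to 5. Control pool 2 stood among the homozygous pools, and homozygous pool 5 stood below control pool 4. The log2 means were 7.23 ± 0.95 in homozygous pools and 5.52 ± 1.28 in control pools (SD, n = 5 each), and the difference of 1.71 ± 0.68 (SE) did not pass (limma adjusted p = 0.265). Without control pool 2 the difference was 2.21 (limma adjusted p = 0.0798).

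A second Chrna3 probe set, 1452010_at, read 177, 92.2, 207, 142 and 101 in homozygous pools, against 5.88, 145, 3.51, 18.3 and 26.5 in control pools. Control pool 2 again stood among the homozygous pools, while the 4 other controls lay below all of them, 2 at the floor. The difference was 2.28 ± 0.62 (SE, limma adjusted p = 0.165 over all probe sets), a size that depends on the floor. The third, 1444368_at, was dim, with 11.5 to 48.9 in homozygous pools and 7.09 to 34.8 in control pools, and differed by 0.67 ± 0.34 (SE).

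Chrnb4 encodes the beta4 subunit, the usual partner of alpha3 in ganglia. The 2 genes are neighbours at chr9:55010117-55026562 (Chrna3) and chr9:55028154-55048953 (Chrnb4), 1591 bases apart. The brighter Chrnb4 probe set, 1457008_at, read 143, 137, 215, 137 and 132 in homozygous pools and 84.2, 161, 89.4, 80.9 and 120 in control pools. As for Chrna3, control pool 2 was the highest control, and it exceeded all homozygous pools but pool 3. The difference was 0.54 ± 0.24 (SE; limma adjusted p = 0.312). The dim second probe set, 1425849_at, with 7.74 to 42.6 in homozygous pools and 6.29 to 40.3 in control pools, differed by -0.29 ± 0.31 (SE), the opposite sign.

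Chrna5, the third gene of this cluster, encodes an accessory subunit that joins alpha3 and beta4. Its annotated span, chr9:54980827-55011420, overlaps that of Chrna3 by 1304 bases. Its brighter probe set read 49.0, 44.8, 66.8, 26.3 and 54.8 in homozygous pools and 40.3, 40.3, 24.9, 18.7 and 14.2 in control pools, a difference of 0.83 ± 0.34 (SE; limma adjusted p = 0.279). Homozygous pool 4 lay within the control range and the other 4 lay above it. The second Chrna5 probe set differed by 0.31 ± 0.28 (SE).

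Chrna4 and Chrnb2 encode the alpha4 and beta2 subunits, which together form the most common receptor of the brain. The brightest Chrna4 probe set, 1456354_at, read 78.1, 78.2, 116, 121 and 78.7 in homozygous pools and 112, 86.0, 97.9, 88.1 and 99.7 in control pools. The control values lay inside the homozygous range, and the difference was -0.06 ± 0.18 (SE; limma adjusted p = 0.919). The other 2 Chrna4 probe sets were dimmer, at 53.0 or less on every array, and differed by 0.50 ± 0.21 and 0.22 ± 0.22 (SE). Chrnb2 was dim in all 3 of its probe sets, at 45.3 or less on every array. Its brightest, 1420744_at, read 33.1, 45.3, 24.7, 25.2 and 42.9 in homozygous pools against 44.0, 33.3, 35.0, 40.6 and 31.5 in control pools, a difference of -0.14 ± 0.20 (SE; limma adjusted p = 0.769). A dimmer one, 1441837_at, was at the floor on all 5 control arrays and on 1 homozygous array, and read 18.6 to 30.5 on the other 4 homozygous arrays, with a fitted difference of 0.57 ± 0.18 that depends on the floor (SE; limma adjusted p = 0.236 over all probe sets).

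**Figure D2:**
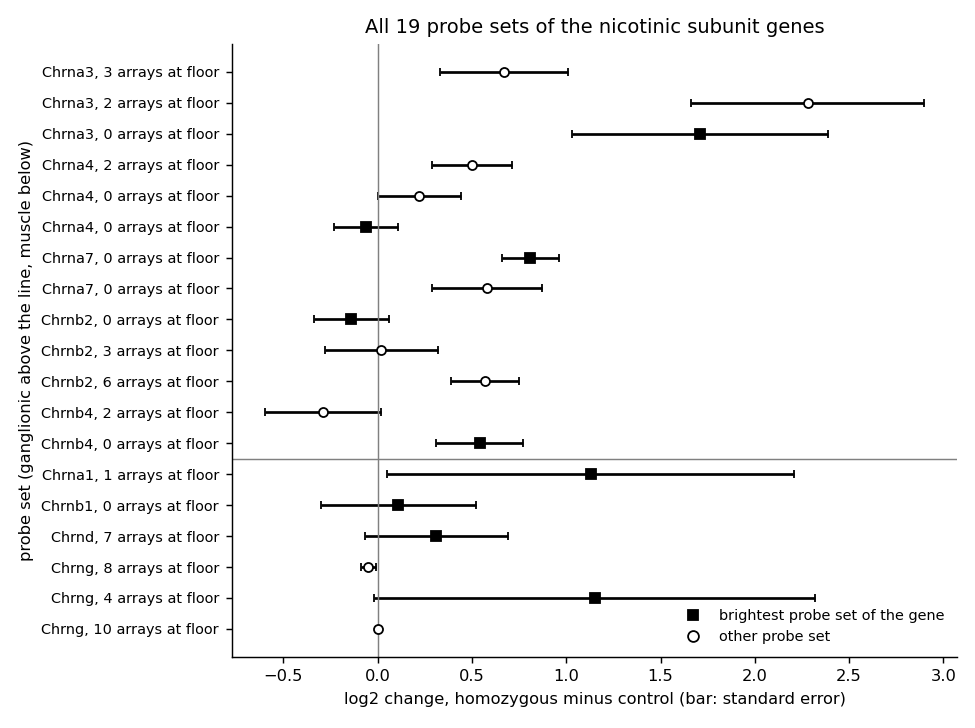
Log2 change, homozygous minus control, with its standard error for all 19 probe sets of the 9 genes, with the number of arrays at the floor beside each name; filled squares are the brightest probe set of a gene. Probe sets of 1 gene differ most for Chrna3 (0.67 to 2.28), and those of Chrna4, Chrnb2, Chrnb4 and Chrng lie on both sides of 0.

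Among the controls, markers of sympathetic neurons and chromaffin cells were highest in the same pool as Chrna3 and Chrnb4, but not as Chrna7. Of the 16 genes listed, 15 were named on the array, 14 had a positive change, and 1, the noradrenaline transporter gene Slc6a2, was called (4.63 ± 0.87, SE; limma adjusted p = 0.0489; lost in 9 of 10 fits that left out 1 pool). The median change was 2.77, against 0.00 over all genes. Their summed intensity ran from 15919 to 35692 in homozygous pools and from 1760 to 12212 in control pools, and 0 of the 15 were at the floor on 5 or more arrays. Their mean log2 level was 10.31, 9.75, 10.61, 9.40 and 9.41 in homozygous pools 1 to 5 and 5.79, 8.75, 6.32, 7.78 and 7.90 in control pools 1 to 5. Control pool 2, which had the highest Chrna3 and Chrnb4 among controls, also had the highest marker mean among controls. The 5 pools with most Chrna7, the homozygous ones, were the 5 with the highest marker mean. Both were higher in every homozygous pool than in any control pool, so this match is the difference between genotypes. Chrna7 and the markers both peaked in homozygous pool 3. For Chrna3 and for Chrnb4, 4 of the 5 top pools were shared, homozygous pools 1 to 4, and the fifth was control pool 2. As the 5 highest marker means were all homozygous, this count too follows the difference between genotypes. Chrna7 was highest among the controls in pool 1, at 481, where the markers were lowest, and was 364 in pool 2. Control pool 1 was also the control of high actin ratio, 94.77, against 11.62 to 16.36 in the remaining controls. The change of Phox2a, which encodes a homeodomain factor needed for noradrenergic fate, was 3.07 ± 0.61 (SE; limma adjusted p = 0.0558). The part of these markers and of the share of probe sets at the floor in the Chrna7 difference was not tested.

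**Figure D3:**
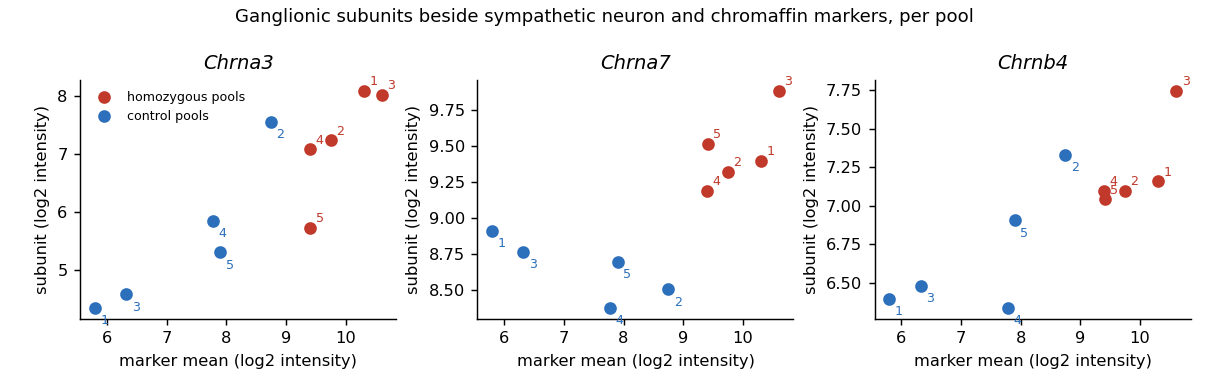
Log2 intensity of Chrna3, Chrna7 and Chrnb4 (vertical) against the mean log2 intensity of 15 sympathetic neuron and chromaffin markers (horizontal) in each pool, with pool numbers beside the points. Control pool 2, at a marker mean of 8.75, lies level with the homozygous pools for Chrna3 and Chrnb4 and below them for Chrna7.

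Smooth muscle and glial markers also had mostly positive changes, none of them called. Of 8 smooth muscle markers, 8 had a positive change, with a median of 1.81 and 0 called, and their sums were 13194 to 43328 in homozygous pools and 8466 to 26160 in control pools. Acta2, the smooth muscle actin gene, differed by 0.84 ± 0.28 and Synm, which encodes synemin, by 1.01 ± 0.30 (SE; limma adjusted p = 0.178 and 0.142). Of 7 glial markers, 5 were named, 4 of them had a positive change with a list median of 0.95, and 0 were called. Fabp7, a fatty acid binding protein of immature glia, differed by 2.09 ± 0.54 and Foxd3, a neural crest transcription factor, by 0.98 ± 0.42 (SE; limma adjusted p = 0.1 and 0.306). Their sums were 2588 to 5148 in homozygous pools and 1316 to 4135 in control pools. Chrna3, Chrna7 and Chrnb4 each shared 4 of their 5 top pools with the smooth muscle markers, for Chrna3 and Chrnb4 with control pool 2 among them. The pools with the highest glial means, homozygous pools 1 to 4 and control pool 2, were also those with most Chrna3 and Chrnb4. What these tissues contributed to the ganglionic subunits was not tested.

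Chrna1 encodes the alpha1 subunit, which holds the acetylcholine binding site of the muscle receptor. Its probe set, 1418852_at, read 507, 419, 219, 131 and 53.8 in homozygous pools 1 to 5 and 26.9, 107, 14.9, 604 and 234 in control pools 1 to 5. The highest and the lowest pool were both controls, and the control values spanned 5.24 on the log2 scale against 3.24 in homozygous pools. The log2 means were 7.65 ± 1.32 in homozygous pools and 6.52 ± 2.16 in control pools (SD, n = 5 each), and the difference of 1.13 ± 1.07 (SE) was about the size of its error (limma adjusted p = 0.663). Without control pool 3 it was 0.50, and without control pool 4 it was 1.81.

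Chrng encodes the gamma subunit of the fetal receptor, and its bright probe set, 1449532_at, read 232, 250, 230, 37.6 and 7.43 in homozygous pools and 14.7, 9.79, 5.95, 309 and 119 in control pools. Homozygous pool 5 and control pools 1, 2 and 3 were at the floor, and the other 6 pools were well above it. The difference was 1.15 ± 1.15 (SE; limma adjusted p = 0.676). The remaining Chrng probe sets, 1427728_at and 1452520_a_at, were at the floor on 8 and 10 arrays, with fitted differences of -0.05 and 0.00. With the mean of all 3 probe sets Chrng differed by 0.37, and without 1 pool by 0.79 to 1.86, the highest without control pool 4. The epsilon gene Chrne, whose product replaces gamma after birth, read 5.57 to 37.2 in homozygous pools and 14.5 to 41.7 in control pools, a difference of -0.19 ± 0.32 (SE; limma adjusted p = 0.81).

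Chrnb1 encodes the beta1 subunit. Its probe set, 1420682_at, read 530, 462, 340, 252 and 173 in homozygous pools and 181, 294, 211, 612 and 354 in control pools, with the same highest pool, control pool 4, as Chrna1 and Chrng. It was above the floor on all arrays and had a narrower spread, 1.82 on the log2 scale between the extreme pools, against 5.24 for Chrna1. The difference was 0.11 ± 0.41 (SE; limma adjusted p = 0.938). Chrnd, the delta subunit gene, lies 5740 bases from Chrng, at chr1:87190597-87200070 and chr1:87205811-87211835. It was at the floor on 7 arrays, and the 3 above it were homozygous pools 1 and 2, at 58.8 and 22.8, and control pool 4, at 28.2. Its fitted difference was 0.31 ± 0.38 (SE; limma adjusted p = 0.728).

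The windows of 250 bases before a RefSeq start of 3 muscle genes and of Chrnb4 are shown because E-boxes, the binding sites of myogenic factors such as MyoD, are a known feature of muscle receptor promoters. Capitals mark CAGCTG, which reads the same on both strands, and CAGGTG on either strand. The windows are chr2:73580339-73580588 for Chrna1, chr11:69795938-69796187 for Chrnb1 and chr9:55048545-55048794 for Chrnb4, all on the minus strand, and chr1:87205561-87205810 on the plus strand for Chrng (RefSeq, GRCm38.p6). The start used for Chrnb4 lies within the gene span given above, so that all 250 bases fall inside it, and 29 bases of the Chrnb1 window fall inside the Chrnb1 span. The Chrna4 window searched for the same letters also lies inside its gene.
Chrna1: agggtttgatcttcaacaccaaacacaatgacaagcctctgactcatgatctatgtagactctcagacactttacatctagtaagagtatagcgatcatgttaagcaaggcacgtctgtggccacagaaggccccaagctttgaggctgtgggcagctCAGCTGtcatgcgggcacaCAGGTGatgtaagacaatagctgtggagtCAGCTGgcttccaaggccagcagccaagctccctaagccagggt
Chrng: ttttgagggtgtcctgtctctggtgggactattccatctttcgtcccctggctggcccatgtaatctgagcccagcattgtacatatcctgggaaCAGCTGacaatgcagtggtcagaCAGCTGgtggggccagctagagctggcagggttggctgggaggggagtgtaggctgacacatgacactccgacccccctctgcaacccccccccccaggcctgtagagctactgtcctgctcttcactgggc
Chrnb1: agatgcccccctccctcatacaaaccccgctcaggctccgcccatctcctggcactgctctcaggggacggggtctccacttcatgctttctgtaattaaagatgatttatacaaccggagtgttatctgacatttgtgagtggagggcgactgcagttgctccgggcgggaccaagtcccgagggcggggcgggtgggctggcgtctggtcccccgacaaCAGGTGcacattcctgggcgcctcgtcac
Chrnb4: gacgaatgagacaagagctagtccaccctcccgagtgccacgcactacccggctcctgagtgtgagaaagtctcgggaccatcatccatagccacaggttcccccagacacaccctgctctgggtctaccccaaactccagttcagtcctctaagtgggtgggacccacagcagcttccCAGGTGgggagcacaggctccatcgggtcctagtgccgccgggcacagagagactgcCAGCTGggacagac

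Of the 9 genes 8 had a window in the RefSeq table. Chrna1 held 3 matches, starting 92, 73 and 44 bases before the start, Chrng held 2 and Chrnb1 held 1. The Chrnb1 match starts 29 bases before the start used and so lies inside the Chrnb1 span. Among the ganglionic genes Chrnb4 held 2, and Chrna3, Chrna4, Chrna7 and Chrnb2 held 0. Of all 32851 windows, 27.7% held 1 or more of these matches and 5.21% held 2 or more. A match is a run of letters, and binding was not measured.

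Skeletal muscle markers varied with the muscle subunits from pool to pool. All 15 listed genes were named and had a positive change, with a median of 1.94 and 0 called. Their sums ran from 5762 to 56958 in homozygous pools and from 437 to 62054 in control pools, and 0 of the 15 were at the floor on 5 or more arrays. The mean log2 level of the list was 10.90, 10.40, 10.39, 8.60 and 7.51 in homozygous pools 1 to 5 and 4.84, 7.40, 4.93, 11.18 and 9.37 in control pools 1 to 5. The 5 pools with most Chrna1 were the 5 with the highest marker mean (homozygous pools 1, 2 and 3 and control pools 4 and 5), and this held for Chrnb1 and Chrng too. Chrnd, at the floor on 7 arrays, shared 4 of its 5 top pools with the markers. Chrnb1 was lowest in homozygous pool 5, at 173, against 181 and 211 in control pools 1 and 3, where the markers were lowest. Myf6, a myogenic regulator, differed by 1.94 ± 0.95 and the skeletal actin gene Acta1 by 3.13 ± 1.56 (SE; limma adjusted p = 0.373 and 0.384). Where the muscle came from in each dissection is not given in the labels, and its part in the values of the subunits was not tested.

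**Figure D4:**
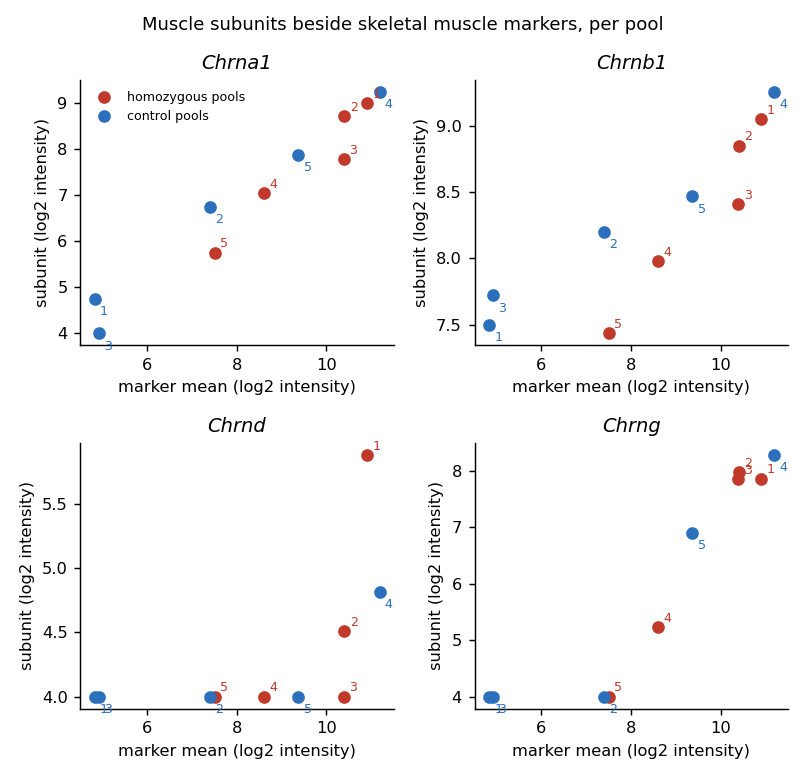
Log2 intensity of the 4 muscle subunit genes (vertical, with 4.0 as the floor) against the mean log2 intensity of 15 skeletal muscle markers (horizontal) in each pool, with pool numbers beside the points. Control pool 4 and homozygous pools 1, 2 and 3 stand at the high end of the markers, at 10.39 to 11.18, and hold the 4 highest Chrng values; control pools 1 and 3 stand at the low end.

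The remaining nicotinic subunit genes were dim. Chrna2 was at the floor on all 10 arrays, and Chrnb3 was at the floor on 7. Chrna6 differed by -0.26 ± 0.24, Chrna9 by 0.26 ± 0.28 and Chrnb3 by -0.21 ± 0.23 (SE), with limma adjusted p of 0.663, 0.695 and 0.704. Over the 6 of 7 such genes named on the array, Chrna5 and Chrne included, 0 were called and the median was -0.10.

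Of the 6 genes that make, move and break down acetylcholine, 6 had a positive change, with a median of 0.45 and 0 called. Chat, the enzyme that makes acetylcholine, read 32.4, 71.4, 103, 105 and 70.5 in homozygous pools and 46.1, 67.2, 16.7, 28.6 and 16.5 in control pools, a difference of 1.23 ± 0.48 (SE; limma adjusted p = 0.251). Bche, which encodes butyrylcholinesterase, read 824, 268, 781, 582 and 681 in homozygous pools and 209, 489, 175, 250 and 224 in control pools, a difference of 1.22 ± 0.37 (SE; limma adjusted p = 0.15). In both, control pool 2 was the highest control and at least 1 homozygous pool lay below it. Of the 5 muscarinic receptor genes 3 were named and 0 were called, with a median of 0.07, and Chrm1 and Chrm3 differed by 0.16 ± 0.31 and 0.07 ± 0.07 (SE; limma adjusted p = 0.852 and 0.663), Chrm3 being at the floor on 9 arrays.

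The 6 genes of neuromuscular junction assembly had a median of 0.05 with 0 called. Agrn encodes agrin, which clusters receptors under the nerve ending and is also a matrix component of basement membranes. It read 4110, 4450, 4390, 4570 and 2880 in homozygous pools and 5000, 5180, 5110, 4700 and 4640 in control pools. The groups did not overlap, and the difference was -0.29 ± 0.12 (SE; limma adjusted p = 0.3). Rapsn, which encodes the receptor anchor rapsyn, differed by 0.28 ± 0.43 (SE; limma adjusted p = 0.798). Its highest values, 58.0 in control pool 4 and 46.6 in homozygous pool 2, fell in pools rich in muscle markers. Of 7 genes for receptor chaperones and Lynx-type modulators 0 were called, with a median of 0.02. Ric3, a chaperone of alpha7 receptors, read 72.3, 112, 105, 85.6 and 110 in homozygous pools and 64.5, 77.0, 53.8, 72.7 and 77.8 in control pools, a difference of 0.48 ± 0.17 (SE; limma adjusted p = 0.208). Lynx1, which binds nicotinic receptors and dampens them, differed by 0.97 ± 0.44 (SE; limma adjusted p = 0.332).

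The remaining lists are markers of the adrenal cortex, the kidney and the bladder lining. Of 8 adrenal cortex markers 0 were called, with a median of 2.02 and sums of 4203 to 41706 in homozygous pools and 296 to 22439 in control pools. Nr0b1, a nuclear receptor gene of the cortex, differed by 1.49 and Hsd3b1, a steroidogenic enzyme gene, by 4.08 (limma adjusted p = 0.236 and 0.364). Of the 9 kidney markers named, 8 had a negative change, with a median of -0.91 and sums of 8873 to 13059 in homozygous pools and 12474 to 26257 in control pools. Lrp2, the megalin gene of proximal tubules, was called lower (-1.73 ± 0.28, SE; limma adjusted p = 0.039; lost in 7 of 10 fits that left out 1 pool), and Lhx1, a factor of early nephrons, differed by -1.57 ± 0.31 (SE; limma adjusted p = 0.0558). Of 5 bladder lining markers 0 were called, with a median of 0.47 and sums of 1068 to 4086 in homozygous pools and 685 to 1886 in control pools. The uroplakin genes Upk1b and Upk3b differed by 1.69 and 1.31 (limma adjusted p = 0.254 and 0.415). The part of these tissues in the subunit values was not tested.

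For the brightest gene of each class, likeness to other genes was measured as the root mean square difference of log2 values after each gene was centred on its mean over the 10 arrays, among genes with a mean log2 intensity of at least 6. Nearest to Chrna7 were Trim46 (0.142), Stx1a (0.166), Gbp7 (0.175), Kcnh2 (0.182) and Nfic (0.183), of which Kcnh2 and Nfic were called (0.59 and 0.67; limma adjusted p = 0.0364 and 0.0176). Leaving out 1 pool ended the call in 7 of 10 fits for Kcnh2 and 3 of 10 for Nfic, and with the mean of all its probe sets Nfic differed by 0.00192 (limma adjusted p = 1.0). Trim46, Stx1a and Gbp7 differed by 0.60, 0.60 and 0.74 (limma adjusted p = 0.0836, 0.116 and 0.0558). All of these genes were picked for pool values like those of Chrna7, so positive changes follow from the choice. Chrnb4 stood at place 856 and Chrna3 at place 11813 of 12478 genes. The measure is not scaled for spread, and Chrna3 spanned 3.75 on the log2 scale against 1.51 for Chrna7. Nearest to Chrnb1 were Zfp385a (0.218), Cdh15 (0.227), Dok7 (0.23), Ppp1r14c (0.252) and Endov (0.263). Cdh15 encodes the cadherin of muscle precursor cells, and Dok7 encodes an activator of the muscle kinase MuSK that was also in the neuromuscular junction list. None of these 5 was called, with changes of -0.18 to 0.39 and limma adjusted p of 0.697 to 0.903. Chrna1 and Chrng, whose spread was wider, stood at places 12046 and 12183.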

How the data were processed

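Trizol RNA, 1 ug per pool, was labelled with biotin as cRNA and hybridized to Affymetrix mouse arrays, per the labels and the series design text; that text describes kidney mesenchyme at an earlier stage, which the sample labels do not match, and the labels were followed. The values are linear intensities that the authors deposited, 1 for each probe set of an array. How they were summarized and background-corrected, and with which software, is not given in the sources used here. The titles of homozygous pools 1 to 4 end in CHP; whether these arrays were handled apart is not given. Without the highest and lowest 2% of values each array averages 500, so total RNA cannot be compared. Precision is limited by the 10 arrays.

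Of 45101 probe sets, 64 controls were left out; 34945 of the others had 1 symbol, 932 several and 9160 none here, and only the first kind was named. Of 109 gene list entries 102 were named. The log2 values were fitted in R 4.3.3 by limma 3.58.1 (lmFit, eBayes with an intensity trend, two-sided) without a block. The fit was also run on simulated data with independent normal noise for each gene. That simulation had no floor and no variation shared between genes of a pool, so it does not test the fit under these features. The 9 members and all lists were chosen with earlier results of these data known. The genes named are the members, Wnt9b, the other nicotinic subunits, up to 3 called genes of each list or the 2 with the smallest p, and the 5 nearest to the brightest member of each class. Alternatives concerned the probe set, a filter on dim genes, the normalization, the floor, the replicate block, the variance model, array weights, RNA integrity, the pools of high Xist and leaving out each pool.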

Additional observations from a re-analysis of the deposited data

Results flagged for a closer look

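Groups of 5 pools were screened for a pool far from the other 4, over 42 groups of subunit genes and gene lists, where chance flags about 1 in 20 groups. The screen found 4. Homozygous pool 3 had a Chrnb4 log2 intensity of 7.75, while the 4 other homozygous pools had 7.04 to 7.16. Homozygous pool 1 had a Chrnd log2 intensity of 5.88, while the 4 others of its genotype had 4.00 to 4.51. Control pool 4 had a Chrnd log2 intensity of 4.82, while the 4 others of its genotype were at the floor, 4.00. For Chrnd 3 homozygous and 4 control pools were set to the floor, so the rate of 1 in 20 does not hold for these groups. Among the controls any value above the floor would have been flagged. The mean of the 3 muscarinic receptor genes was 4.94 in control pool 2, while the remaining controls had 4.45 to 4.51. Chrm3 and Chrm4 were at the floor in every control, so this flag is that of Chrm1 alone. Chrm1 read 113 in control pool 2 and 40.7 to 45.9 in the remaining controls.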

How the results depend on the processing

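Chrna7 kept its positive change, 0.69 to 0.88, under all 22 alternatives and passed limma in 5 of them (adjusted p 0.0227 to 0.299 over the 22). The number of members called was thus 0, not 1, with the mean of all probe sets of a gene, with quantile normalization, with a floor of 32, with the replicate block, without the Xist-high pools, without the arrays of high actin ratio, in the fit over every probe set and in each fit that left out 1 pool (0 to 0). No other member passed under any alternative run. The calls of Slc6a2, Lrp2, Kcnh2 and Nfic were each lost with the replicate block (limma adjusted p = 0.347, 0.288, 0.314 and 0.274), without the arrays of high actin ratio (0.093, 0.0834, 0.0834 and 0.0527) and without the Xist-high pools (0.376, 0.239, 0.214 and 0.139). Averaging all probe sets gave Slc6a2 1.53 and Lrp2 -1.07, both still called. Over all genes, 176 were called, against 109 with the mean of probe sets, 325 with dim genes left out, 94 with a floor of 32, 302 with log2(intensity + 16), 951 with array weights, 489 with the actin ratio as a covariate, 28 without the Xist-high pools, 23 without the arrays of high actin ratio and 3 to 414 without 1 pool. With the replicate block 1 gene was called; same-numbered pools had deviations correlated at -0.55 to -0.17, so the numbers were not taken to pair the pools.

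Changes near 0 turned sign, none of them called. Chrna4 was 0.222 with the mean of probe sets, 0.0487 with array weights, 0.0544 without the arrays of high actin ratio and -0.155 to 0.00206 without 1 pool. Chrnb2 was 0.152 with the mean of probe sets and 0.0828 without the Xist-high pools. Without 1 pool Chrnb1 ran from -0.0677 (without control pool 1) to 0.372, Chrnd from -0.0364 (without homozygous pool 1) to 0.478, Cdh15 from -0.052 to 0.523, Dok7 from -0.0148 to 0.414, Endov from -0.334 to 0.0363 and Wnt9b from -0.432 to 0.0861. Cdh15 was -0.0208 with array weights, Chrm1 -0.0317 without the arrays of high actin ratio, Endov 0.294 without the Xist-high pools, Rapsn -0.0249 with a floor of 32, and Wnt9b 0.1 with the mean of probe sets and 0.0288 without the Xist-high pools. The cause was not tested. Genes near the floor, such as Chrnd, carry little signal over background.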
